A study of Rattus norvegicus with 1 sample.

Results

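The mitochondrial genome of PCCl3 cells was examined here in windows of 50 bp. Every window from the first base of the reference to the last tag was taken, which gave 326 windows among the 55891387 windows of the same size that the whole tag list spans. PCCl3 is an established rat thyroid follicular cell line, grown with thyrotropin and other hormones. The single library, named input DNA by its labels, came from cells fixed with formaldehyde. It was taken to be the control that the paper sequenced. The paper describes that control as obtained shortly ahead of the immunoprecipitation, a step that follows sonication, so no antibody was used on it. It served as the negative control for mapping the binding of the transcription factor Pax8, and the immunoprecipitated DNA was not analysed here. A tag is an aligned read of 50 bp on build rn4, and it was placed at its 5′ end. Positions are 1-based on chromosome M of rn4. Of 6714002 tags, 26636 (0.397%, exact 95% interval 0.392% to 0.402%) lay on the mitochondrial genome. With 1 library and no replicates, no p-value was computed, and intervals cover counting error only.

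Mitochondrial DNA is a small circular molecule that each cell holds in many copies. It carries the genes of the mitochondrial ribosomal and transfer RNAs and of a few core subunits of the respiratory chain, packed closely together, and a non-coding control region from which replication and transcription start. It is not wrapped in nucleosomes but is bound by the protein TFAM, and its strands differ in base composition. Whole-cell chromatin preparations usually carry it along, so that it is one of the deepest covered sequences of an input library. The genes, the control region and the base sequence at the positions named below were not analysed here, since no mitochondrial sequence or annotation of rn4 was used.

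The mitochondrial windows were far deeper than windows of the same size on the autosomes. The median window held 76 tags, the mean was 81.7 and the range was 0 to 230. The middle 50% of windows held between 48.25 and 116 tags. Of 51162378 autosomal windows of 50 bp, 17 held 76 tags or more, and the highest held 227. Depth was uneven along the circle. The variance-to-mean ratio, which is 1 under Poisson counting, was 25.6, and the coefficient of variation beyond that of counting was 0.548. Autosomal bins of 30 kb, which held a like mean of 78.6 tags, had a variance-to-mean ratio of 49.2 and a coefficient of 0.783. The mitochondrial genome was therefore uneven beyond counting error, but less so than much wider autosomal bins of about the same count.

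**Figure D1:**
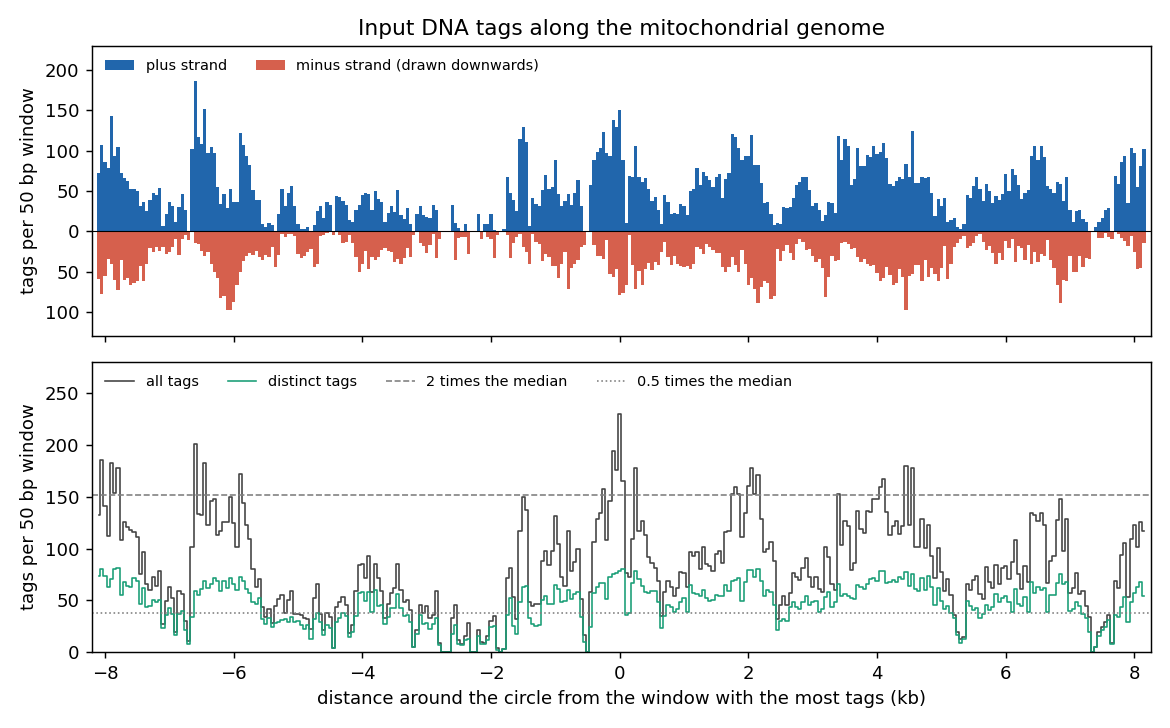
Tags per 50 bp window around the mitochondrial circle, against the distance in kb from the window with the most tags; the upper panel splits them by strand (minus drawn downwards) and the lower panel gives all tags and distinct tags with lines at 2 and 0.5 times the median of 76. Blocks of many plus-strand tags precede blocks of many minus-strand tags, and several stretches reach 0.

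High windows were defined as those with at least 2 times the median, or 152 tags. There were 25, or 7.67% of windows, against 18.5% of the autosomal 30 kb bins under the same rule. The median of those bins was 60 tags, so their thresholds in tags were lower, for high and low bins alike. The 25 high windows lay in 14 runs, of which 9 were single windows, and they held 16.2% of the tags. In distinct tags none was high, since 2 times their median of 48 is 96 of the 100 positions of a window. There were 42 high windows when each tag was moved 100 bp towards the centre of its fragment, and 53 when the plus strand was taken alone. The deepest window, from 4401 to 4450, held 230 tags (exact Poisson 95% interval 201 to 262), of which 151 were plus-strand and 79 minus-strand tags. It belonged to a run of 4 high windows from 4301 to 4500 with 765 tags, the run with the most tags. The window from 14101 to 14150 was next with 201 tags (174 to 231). Its interval overlaps that of the deepest window, so the order of the pair is not settled by counting.

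The remaining windows of the 5 deepest held 194 tags (4301 to 4350), 185 tags (12651 to 12700) and 183 tags (12801 to 12850). The last was level with the window from 14251 to 14300, which comes later on the reference and was not counted among the 5. All 5 had more tags on the plus strand than on the minus strand, and so did 23 of the 25 high windows. Of all 326 windows, 211 did. The strand split nevertheless ranged widely among the 5. The window from 14101 to 14150 had 187 plus-strand and 14 minus-strand tags, while that from 12651 to 12700 had 107 and 78. At the threshold, the window from 6151 to 6200 passed with 153 tags and that from 2901 to 2950 missed it with 150. Other runs of high windows spanned 6151 to 6300, 6401 to 6600, 8451 to 8550 and 12801 to 12950. The mean over each of these runs lay between 2.04 and 2.26 times the median.

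Low windows, with at most 0.5 times the median or 38 tags, were more frequent. There were 63, or 19.3% of windows, against 16.6% of the autosomal bins. They held 4.96% of the tags and lay in 21 runs. The longest run covered 15 windows from 1901 to 2650 and held 192 tags (exact Poisson 95% interval 166 to 221), a mean of 12.8 per window. It closed a sparse stretch of 29 windows from 1201 to 2650, where 25 windows were low and 563 tags were found in all. Runs of low windows in that stretch were parted by no more than 1 window, and the 4 windows between them held 45 to 59 tags.

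Other low runs were shorter. The run from 11701 to 12100 covered 8 windows with 157 tags. The run from 15651 to 15950 had 6 windows with 197 tags, and the run from 16051 to 16300, which reaches the end of the reference, had 5 windows with 134 tags. A run of 4 windows from 9601 to 9800 held 84 tags. These runs differed in their strands. The plus strand held 87.3% of tags in the run at the end of the reference, 26.4% in the run from 15651 to 15950 and 56.7% in the run from 11701 to 12100. At the threshold, the window from 1351 to 1400 was low with 38 tags and that from 1151 to 1200 was not, with 41.

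Of all windows, 8 held no tag, a count for which the exact Poisson 95% interval of the expected number reaches 3.69 tags. They were 6 windows inside the sparse stretch, starting at 1651, 1701, 1751, 2101, 2151 and 2551, and the windows starting at 3901 and 11751. The depth on either side of these was not low throughout. The 50 positions ahead of the empty stretch that starts at 3828 held 66 plus-strand and 23 minus-strand tag starts, and the 50 positions after it held 92 and 23. The fall to 0 was thus abrupt there.

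To see how the empty stretches lay on the strands, each tag was also placed at its lowest-numbered base on the reference, so that tags of both strands that cover the same 50 bp fall on the same point. Placed in this way, the strands were empty at the same places. Stretches of at least 20 bp without tag starts covered 2376 bp on the plus strand, in 35 stretches, and 3006 bp on the minus strand, in 54 stretches. Of the plus-strand bases, 89.0% also lay in minus-strand stretches, and 70.4% of the minus-strand bases lay in plus-strand stretches. For comparison, 18.5% of all start positions lay in minus-strand stretches and 14.6% in plus-strand stretches. When both strands were placed by their 5′ ends instead, 43.8% of the plus-strand bases were shared.

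**Figure D2:**
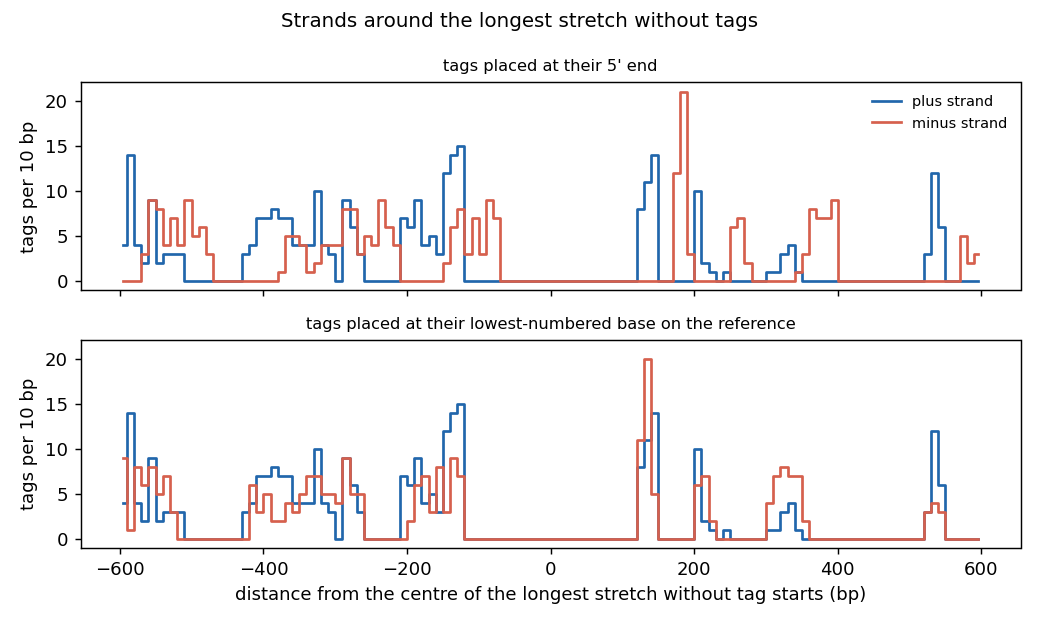
Plus-strand and minus-strand tags per 10 bp against the distance in bp from the centre of the longest stretch without tag starts, placed by 5′ end (upper panel) and by lowest-numbered base (lower panel). In the lower panel the strands leave and return at the same distances, and in the upper panel the minus strand is displaced to the right of the plus strand.

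The longest empty stretch on both strands ran from 1568 to 1809, a length of 242 bp. The next were 190 bp long from 2456 to 2645, 176 bp from 2039 to 2214, 142 bp from 3828 to 3969 and 141 bp from 11690 to 11830. There were 17 such stretches of at least 50 bp, with 1618 bp in all, and 10 of the 17 lay within the first 2650 bp. Bases that no tag covered numbered 785 of 16299, or 4.82%, in 17 blocks, and the longest block was the 193 bp from 1617 to 1809. The median base was covered by 77 tags and the highest by 239. How reads that match more than a single place were handled is not given in the sources used here. DNA missing from the library and DNA whose reads were not listed at these places cannot be told apart from the tag list.

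The empty stretches touched 58 windows, counting the 5′ ends of both strands. Among them were 38 of the 63 low windows, and 25 low windows lay elsewhere. With these 58 windows left out, the median rose to 85.5 tags, and 13 windows were high and 26 low against it. The runs from 15651 to 15950 and from 16051 to 16300 were among the latter, since no empty stretch of 50 bp lay beyond 14062.

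The mitochondrial tags were unequally divided between the strands. The plus strand held 16207 tags and the minus strand 10429, a plus-strand share of 60.8% (exact 95% interval 60.3% to 61.4%). On the 20 autosomes and X, the plus-strand share ran from 49.9% to 50.3%. In distinct tags, counting each 5′ position and strand once, the mitochondrial share was 56.1% (55.3% to 56.9%). Without the 58 windows touched by empty stretches, the share in all tags was 60.7%. The handling of reads that match several places is not known here, and its part in the strand share was not tested. The excess was spread over most of the circle. In 17 consecutive sectors, 16 of them of 1 kb and the last of 300 bp, the plus strand held more tags in 14, each with an interval above 50%. The highest share in a sector of 1 kb was 74.7%, from 2001 to 3000. Of its 608 plus-strand tags, 537 lay from 2601 to 3000, and 14 of its 20 windows were low. Over the low run from 1901 to 2650 the share was 41.1%. The shares from 1001 to 2000 (48.5%), from 11001 to 12000 (48.4%) and from 15001 to 16000 (47.3%) were below 50%, and their intervals included it.

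Strand balance also changed from window to window. The plus strand held more tags in 211 windows and the minus strand in 107. Among the 300 windows with at least 20 tags, the plus strand led by at least 2 to 1 in 121, or 40.3%, and the minus strand in 41, or 13.7%. In distinct tags, 100 windows were skewed either way in place of 162. In autosomal 30 kb bins the same rule was met by 1.85% and 1.76%. Bins of that width average over any displacement between strands of 168 or 315 bp, which windows of 50 bp do not. The shares are therefore not comparable in that respect. The standard deviation of the plus-strand share was 22.3 percentage points over the mitochondrial windows, where counting alone would give 6.09. Over the autosomal bins it was 7.32, and counting alone would give 6.73, with the same limit. At the threshold, the window from 451 to 500 passed with 48 plus-strand and 24 minus-strand tags, and the window from 12301 to 12350 missed it with 35 and 18.

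**Figure D3:**
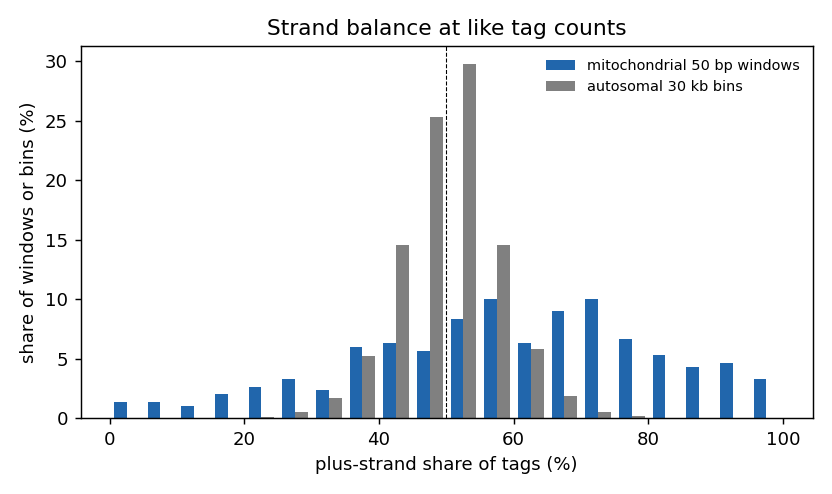
Share of windows or bins (%) by plus-strand share of tags in steps of 5 percentage points, for mitochondrial windows of 50 bp and autosomal bins of 30 kb with at least 20 tags each. The autosomal bins, which are wide enough to average over a displacement between strands, gather around 50%, and the mitochondrial windows spread from 0% to 100% with 121 of 300 at 2 to 1 or more for the plus strand.

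Placement by 5′ ends itself makes windows beside an empty stretch one-sided, because after it plus-strand ends resume 49 bp ahead of the minus-strand ends of tags that cover the same bases. The one-sided windows at such places are therefore listed as a description of the edges only. Of windows with at least 20 tags, 7 held plus-strand tags alone, and 6 of these were touched by an empty stretch. They lay from 14051 to 14100 (102 tags), from 12101 to 12150 (69), from 3951 to 4000 (58), from 1801 to 1850 (33), from 1251 to 1300 (21) and from 2201 to 2250 (21). The other was the first window of the reference, with 44 tags, where a minus-strand tag would have to reach past the end of the sequence at every position but the last. Minus-strand tags alone were found in 3 such windows, from 11701 to 11750 (34 tags), from 2051 to 2100 (28) and from 15901 to 15950 (22). The window from 15351 to 15400 had 1 plus-strand and 44 minus-strand tags, and that from 2451 to 2500 had 2 and 33. The windows from 15351 and from 15901 were touched by no empty stretch of 50 bp. Of the skewed windows, 105 of the 121 plus-skewed and 32 of the 41 minus-skewed were touched by none. Of all 300 windows with at least 20 tags, 267 were touched by none, so skewed windows were not touched less often.

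Windows of a like strand balance lay side by side. The longest run of windows with more plus-strand tags covered 29 windows from 9751 to 11200, with 1689 plus-strand and 680 minus-strand tags. The longest run in favour of the minus strand was 8 windows from 6551 to 6950, with 262 and 507. From 14051 to 14450 the plus strand held 82.6% of tags over 8 windows, and over the next 7 windows, from 14451 to 14800, it held 33.6%. A like change was seen where 10 windows from 6051 to 6550, with a plus-strand share of 66.6%, were followed by the minus-strand run that starts at 6551.

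The strands were therefore compared at a distance. Within the same window, plus-strand and minus-strand counts had a Spearman correlation of 0.284 over 326 windows, which share a library and neighbouring sequence. Plus-strand counts followed minus-strand counts of later windows more closely. The correlation was 0.512 at 200 bp, 0.691 at 300 bp and 0.695 at 350 bp, the highest of the shifts from 0 to 1000 bp, and it fell to 0.325 at 600 bp. In the opposite direction, minus-strand counts with plus-strand counts of later windows, it fell from 0.236 at 50 bp to -0.13 at 650 bp. Without the windows touched by empty stretches, the unshifted value was 0.123 and that at 350 bp was 0.678, over 232 pairs of windows.

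The same was measured base by base in distinct tags, for shifts of 0 to 600 bp. The Pearson correlation between plus-strand ends and shifted minus-strand ends was highest at 315 bp on the mitochondrial genome (r = 0.173), on a broad rise from about 225 to 450 bp. A narrower rise stood near 50 bp, where r was 0.157 at 49 bp, the distance between the ends of a tag. On the autosomes, the highest r was at 168 bp (0.00464), and on single autosomes the shift lay between 158 and 180 bp. At 168 bp the mitochondrial r was 0.122, and at 315 bp the autosomal r was 0.00148. The shift of highest r was thus longer on the mitochondrial genome than on any single autosome. The mitochondrial rise was broad, with r already 0.160 at 246 bp. Whether the 2 shifts measure the same displacement was not tested. Fragments near 200 bp had been selected for the library. Leaving out windows touched by empty stretches kept the shift at 315 bp (r = 0.131), and r at 49 bp was then 0.0665. These are correlations over positions of 1 library, which are not independent replicates, and the level of r rises with tag density, so the levels of the 2 genomes are not compared.

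**Figure D4:**
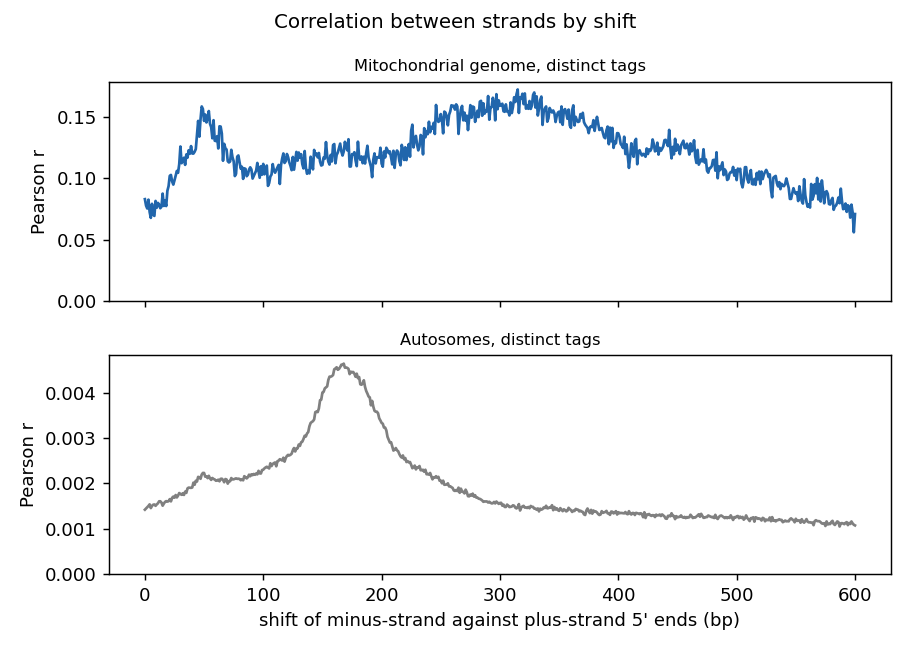
Pearson correlation of plus-strand with minus-strand 5′ ends against the shift between them in bp, in distinct tags, for the mitochondrial genome (upper panel) and the autosomes (lower panel, on its own scale). The mitochondrial curve has a narrow rise near 49 bp and a broad one with its highest value at 315 bp, and the autosomal curve is highest at 168 bp.

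Saturation was the last property examined. A window has 50 positions on each strand, so that distinct tags cannot pass 100 per window. The 26636 tags occupied 14967 positions and strands, or 45.9% of all up to the last tag, empty stretches included. The exact binomial 95% interval, 45.4% to 46.5%, treats positions as independent, which clustered tags do not make them. Plus-strand positions were occupied at 51.6% and minus-strand positions at 40.3%. No window was full. The highest number of distinct tags in a window was 81, and 10 of 652 strand-windows had 45 or more of their 50 positions occupied, all 10 of them on the plus strand. The fullest was the plus strand from 14101 to 14150, with 48 positions occupied by 187 tags.

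Repeated tags, those beyond the first at a position and strand, made up 43.8% of mitochondrial tags (exact 95% interval 43.2% to 44.4%). That interval, like those of repeated shares below, treats tags as independent, although a tag is repeated only in relation to others. Tags placed at random on so few positions also coincide. Even placement of as many tags over both strands would, by formula, give 31.7% repeated tags. Placed evenly within each window and strand, with the observed count of each kept, the tags would give 40.3%. On that basis 15891 positions would be occupied, 924 more than were observed. The share was higher on the plus strand (48.2%) than on the minus strand (37.0%), where tags were fewer.

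The repeated share came closer to its formula value as windows filled. Strand-windows with 1 to 19 tags had 19.4% repeated tags, against 10.7% by formula. For those with 40 to 59 tags the values were 39.4% and 35.8%. For the 35 strand-windows with 100 to 187 tags, all on the plus strand, they were 63.3% and 61.7%. The occupied share did not come closer. It was 16.1% against 17.8% by formula at 1 to 19 tags, 58.6% against 62.0% at 40 to 59 and 86.5% against 90.2% at 100 to 187. The median variance-to-mean ratio over the 50 positions of a strand-window rose from 1.11 in the sparsest of the 6 classes to 1.34 in the fullest. Low windows as a whole had 25.1% repeated tags (22.7% to 27.5%), against 17.4% by formula. High windows had 56.9% (55.4% to 58.4%), against 55.1%. The formula takes all 50 positions of a strand-window as open, and empty stretches touched 38 of the 63 low windows. Part of the difference in sparse windows is therefore built in, and its size was not measured.

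**Figure D5:**
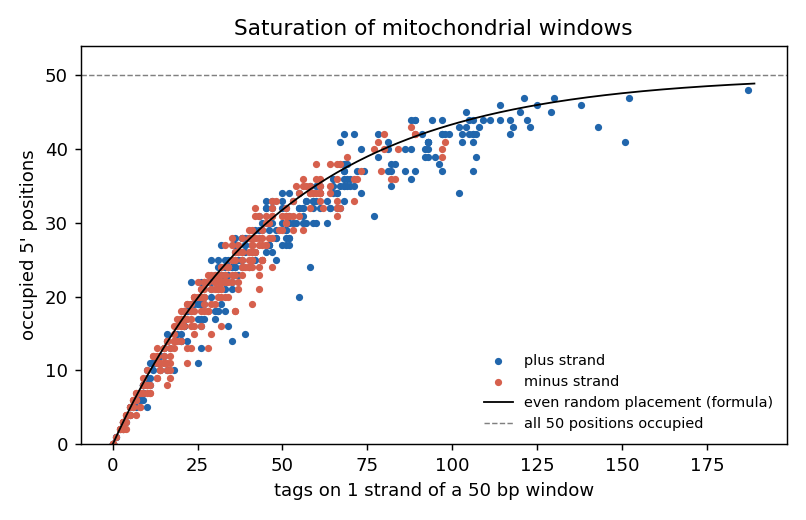
Occupied 5′ positions against tags on 1 strand of a 50 bp window, a point for each strand of the 326 windows, with the curve that even random placement gives by formula and the limit of 50 positions. Most points lie on or a little below the curve, and the fullest strand-window has 48 positions occupied by 187 tags.

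Few positions stood far above their surroundings. Single tags stood at 54.5% of occupied positions, pairs of tags at 26.4% and 3 tags at 11.2%. There were 9 positions with 10 tags or more, 8 of them on the plus strand. The highest was on the minus strand at 15968, with 16 of the 44 minus-strand tags of its window, and none of the 10 nearest positions of that strand had more than 1 tag. The next were plus-strand positions 4356, 8493 and 12814 with 12 tags each and 2950 with 11, the last level with 12672 and 14097. These plus-strand positions lay in windows of 102 to 185 tags, and the highest of their 10 nearest positions had between 3 and 7 tags.

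The ends of the reference limited the placement of tags, because the circle had been aligned as a line. The last plus-strand 5′ end was at 16250 and the first minus-strand 5′ end at 59, while the last base covered by any tag was 16299. Reads that cross the junction are thus not in the list as whole tags. The last window, from 16251 to 16300, held 4 tags, all on the minus strand.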

How the data were processed

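Reads of 50 bp from 1 input DNA library (PCCl3 rat cells, 18 PCR cycles) were aligned by the authors to rn4 with the MIRO pipeline, allowing 2 mismatches, and deposited as a list of tag positions without normalization. The sources used here do not give its version, or how reads with several places or repeated reads were handled. The labels name the library input DNA. The paper uses that name for DNA taken ahead of sonication and calls its sequenced control non-immunoprecipitated DNA. The library was taken to be the latter, because the list holds as many tags as the paper gives for that control.

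Chromosome M tags were counted in windows of 50 bp by 5′ end and strand. Intervals at the 95% level are exact (Clopper-Pearson or Poisson). PCR reads without molecular identifiers are not independent molecules. Expected occupancy of n tags on k positions was k(1 − (1 − 1/k) to the power n). Fold rules of 2 times, a minimum of 20 tags for strand skew and the windows were set with earlier results of these data known. The same holds for naming the 5 most extreme windows and positions. Ties among the deepest windows, 1-sided windows and positions were added later. The measures were tested on simulated data. Python 3.11.15, numpy 2.4.6, pandas 2.3.3 and scipy 1.17.1 were used. Alternatives are given in the closing section.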

Additional observations from a re-analysis of the deposited data

How the results depend on the processing

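The plus-strand share stayed above 50% and the correlation between strands above 0 in every alternative run for them, while several counts moved with the rule that defines them. With distinct tags in place of all tags 0 windows were high, since windows have no more than 100 positions. The variance-to-mean ratio was then 8.65, the plus-strand share 56.1%, the skewed windows 100 in place of 162, and the correlation between strands 0.330. With 100 bp windows, which number fewer, there were 14 high, 25 low and 78 skewed windows, a ratio of 46.9 and a correlation of 0.348. Shifting windows by 25 bp gave 25.9 and 0.274. Moving tags 100 bp to the fragment centre gave 42 high windows, 29.8 and 0.518. Capping positions at 5 tags gave 24.3, 0.288 and a shift between strands of 312 bp, which all tags gave too. Without the first 4 and last 4 windows the values were 25.1 and 0.272. The plus strand alone gave 53 high windows, a ratio of 25.01, 51.6% occupied and 48.2% repeated. The minus strand alone gave a ratio of 14.6, 40.3% occupied and 37.0% repeated. At 1.5 times the median 85 windows were high. At 3 times, 1 was high and 34 were low, and 99 were skewed at 3 to 1. Leaving out windows touched by empty stretches, chosen after seeing the data, gave 13 high and 26 low windows, a ratio of 17.8, a plus-strand share of 60.7% and a correlation of 0.123. Where no construction is named, the cause was not tested. No paired analysis was possible because only 1 library was analysed. At this depth the 95% interval of a median window of 76 tags is wide, and neighbouring windows of like depth cannot be ranked.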
